A study of Mus musculus with 6 samples.

Results

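Genes that carry fatty acids from blood into cells and into and out of lipid droplets were followed in mouse ventricle after repeated fast pacing from the atrium. They are the 10 rows of the per-mouse expression table whose gene name is Plin2, Plin3, Plin4, Plin5, Pnpla2, Lipe, Lpl, Cd36, Angptl4 or Dgat2, out of 24239 rows in all, and they were matched by name, from a set drawn up with earlier results of these data known. Ventricles came from 6 male C57BL/6 mice aged 8 to 10 weeks. In 3 mice a catheter in the esophagus next to the atria paced the heart every 80 ms, in daily sessions of 45 min that began and ended with 3 min at the slower interval of 120 ms. Sessions were given on 5 days and again on 3 days, with 2 resting days in the middle. The other 3 mice were sham controls without pacing, and the labels name no modified allele in either group. Polyadenylated RNA was sequenced from stranded libraries as paired ends of 151 bases, and expression is given as FPKM, fragments per kilobase of transcript scaled to the sequenced total.

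The heart runs largely on fatty acids. Lipoprotein lipase on the capillary wall frees them from circulating triacylglycerol, the scavenger receptor CD36 helps to take them up, and what is not burned at once is joined to glycerol and held in lipid droplets. Perilipins coat these droplets and control the access of lipases, and in cardiomyocytes perilipin 5 holds droplets against mitochondria. Adipocytes use many of the same genes, and perilipin 1 is the coat protein of their large droplets.

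No member differed between paced and sham ventricles at an adjusted p under 0.05 (limma, 0 of 10 members, against 0% of 11994 genes tested). All 10 members passed the filter of a mean of at least 1 FPKM. At an unadjusted p under 0.05, Lipe was higher and Plin5 was lower in paced ventricles, 2 of 10 members, where 8.85% of all genes tested had such a p, 5.17% higher and 3.69% lower. In 0 of 10 members did the groups separate without overlap, which 13.2% of all genes tested did, 6.24% higher and 6.97% lower in paced mice. Of the members, 7 had a positive and 3 a negative log2 fold change, against 48.2% positive among all genes tested, and their median was 0.07 against -0.01. Fold changes subtract the sham mean from the pacing mean of log2(FPKM + 1), and the tissue is bulk ventricle, in which fewer cells of a type and less RNA per cell cannot be told apart.

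**Figure D1:**
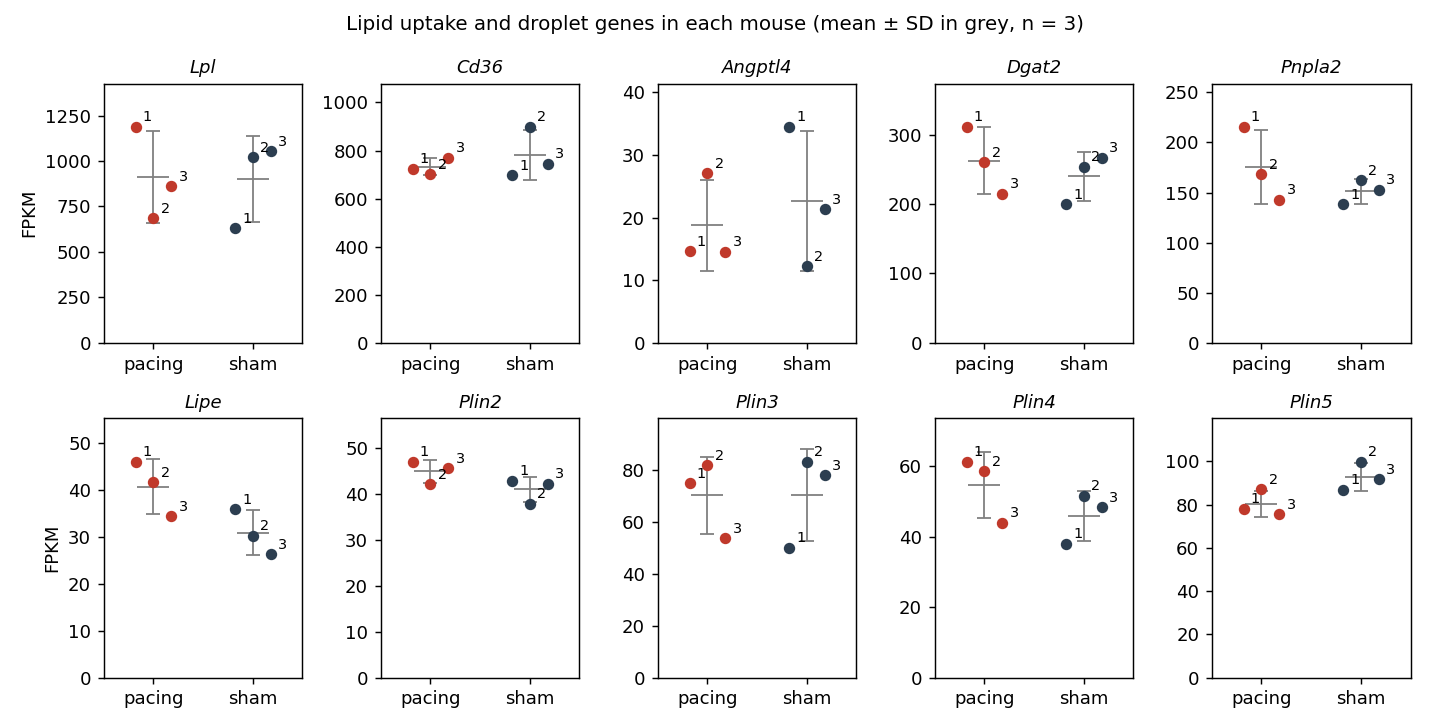
FPKM of each member in each mouse (points, with the mouse number) by group, with the group mean and SD in grey and axes starting at 0. The groups overlap in every panel, most narrowly for Plin5, where pacing 2 stood at 87.0 and sham 1 at 86.9 FPKM.

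The effective depth of the 6 libraries, read from the steps between their lowest values, was between 6275000 and 8908000 fragments. The smallest member value, Angptl4 in sham 2, then stands for about 304 fragments on its longest coding transcript and has a counting error of 5.74%. The lowest fragment numbers behind Plin2 and Lpl were about 455, in sham 3, and 19421, in sham 1. Ventricular muscle dominated each library, with the ventricular light chain Myl2 between 25481 and 39377 FPKM. The libraries differed in tissue makeup. The fat gene Adipoq stood at 72.8, 36.2 and 28.6 FPKM in pacing 1, 2 and 3 and at 27.0, 2.14 and 1.94 FPKM in sham 1, 2 and 3. The atrial light chain Myl7 stood at 1141, 3520.1 and 2358 FPKM in pacing 1, 2 and 3 and at 2699.6, 31.4 and 966 FPKM in sham 1, 2 and 3. The lung gene Sftpc was high in pacing 2 and pacing 3 only, at 153 and 430.1 FPKM, against 0.195 FPKM in pacing 1 and at most 1.0 FPKM in the sham mice.

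On the FPKM scale, which is per length, the members spanned a wide range of levels. Over the 6 mice Lpl averaged 907 ± 219 FPKM and Cd36 757 ± 74.6 FPKM, above 99.0% and 98.7% of the genes tested. Dgat2 followed at 251 ± 39.7, Pnpla2 at 163 ± 27.96, Plin5 at 86.5 ± 8.91, Plin3 at 70.4 ± 14.6, Plin4 at 50.4 ± 8.81, Plin2 at 42.9 ± 3.18, Lipe at 35.7 ± 7.21 and Angptl4 at 20.7 ± 8.70 FPKM (SD, n = 6). Lpl lay above Cd36 in only 4 of 6 mice, and Plin4 above Plin2 in 4 of 6, so these neighbours do not differ beyond their spread. Every other neighbour in this order kept its place in 6 of 6 mice, although only the ranges of Cd36 and Dgat2, and of Pnpla2 and Plin5, were fully apart.

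At the vessel wall, Lpl, which encodes lipoprotein lipase, averaged 912 ± 254 FPKM in paced and 902 ± 236 FPKM in sham ventricles (SD, n = 3 each). It stood at 1188, 687 and 860.2 FPKM in pacing 1, 2 and 3, against 629.9, 1021 and 1054 FPKM in sham 1, 2 and 3. The highest and the lowest value of the 6 mice thus lay in different groups, and the groups overlapped widely. The log2 fold change was 0.02 (SE 0.24, 95% interval -0.53 to 0.57, limma adjusted p = 0.990). In mm10 coordinates the deposited interval of Lpl is chr8:68880555-68906932, on the plus strand in GENCODE M21. Its direction turned without pacing 1 (-0.19) and without sham 1 (-0.22).

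Angptl4, a secreted inhibitor that inactivates lipoprotein lipase, was the most variable member. It stood at 14.6, 27.1 and 14.5 FPKM in pacing 1, 2 and 3, against 34.5, 12.3 and 21.4 FPKM in sham 1, 2 and 3. The coefficient of variation was 38.6% in paced and 49.2% in sham mice, and the sham mice spanned both ends of the range. The log2 fold change was -0.21 (SE 0.35, 95% interval -1.01 to 0.59, limma adjusted p = 0.897). It was 0.14 without sham 1, -0.93 with the level of fat genes as a covariate and -0.73 with that of atrial genes, neither passing (limma adjusted p = 1.0 and 0.668). With the atrial covariate its limma unadjusted p was 0.0106. Sham 1 and pacing 2, the mice with the highest Angptl4, were also those with the lowest Lpl and the highest Myl7. The part of atrial tissue in this was not tested. Angptl4 lies at chr17:33774900-33781575 on the minus strand.

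The endothelial protein that anchors lipoprotein lipase to the capillary, Gpihbp1, stood at 112, 141 and 116 FPKM in pacing 1, 2 and 3, against 136, 137 and 148 FPKM in sham 1, 2 and 3 (log2 fold change -0.19 with an SE of 0.10, adjusted p = 0.642 by limma). Among the partners of Lpl and the lipoprotein receptors, 14 of 17 listed genes were tested, with 6 positive and 8 negative fold changes, a median of -0.03 and 0 passing. An unadjusted p under 0.05 was reached by 2 of them, both higher in paced mice. The larger of these was Apoe, which carries lipids between cells, at 576, 622 and 571 FPKM in pacing 1, 2 and 3 and at 585, 303 and 414 FPKM in sham 1, 2 and 3 (log2 fold change 0.49 with an SE of 0.20, adjusted p = 0.553 by limma). Sham 1 thus lay among the paced mice. The other was Lrp1, a receptor that clears lipoprotein remnants, at 12.9 FPKM in paced and 9.06 FPKM in sham ventricles on average, without overlap (log2 fold change 0.48). All 7 endothelial markers tested had negative fold changes, with a median of -0.14. Their summed level was between 302 and 342 FPKM in paced mice and between 337 and 380.0 FPKM in sham mice, and their part in the Gpihbp1 values was not tested.

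Cd36, the fatty acid receptor of muscle and capillary cells, was the most even of the abundant members. It stood at 725, 702 and 771 FPKM in pacing 1, 2 and 3, against 699, 899 and 746 FPKM in sham 1, 2 and 3. Only sham 2 stood apart from the other mice. The log2 fold change was -0.08 (SE 0.11, 95% interval -0.34 to 0.17, limma adjusted p = 0.860), and it turned to 0.02 without sham 2. Cd36 spans chr5:17781690-17888959 on the minus strand. Among the other genes of fatty acid uptake, binding and activation, 16 of 20 were tested, 8 in each direction, with a median log2 fold change of 0.01 and 0 passing. Fabp3, the fatty acid carrier of cardiomyocytes, stood at 9808, 9001 and 9754 FPKM in pacing 1, 2 and 3, against 8902, 11263 and 11784 FPKM in sham 1, 2 and 3. Fabp4, which endothelial cells and adipocytes make, averaged 1694 ± 232 FPKM in paced and 1648 ± 66.8 FPKM in sham ventricles (SD, n = 3 each). The gene with an unadjusted p under 0.05 was Tcf15, an endothelial transcription factor that drives fatty acid transport genes together with Meox2, at 15.9 ± 3.37 FPKM in paced and 20.5 ± 2.85 FPKM in sham ventricles (log2 fold change -0.36 with an SE of 0.15, adjusted p = 0.554 by limma).

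Dgat2 encodes an enzyme of the last step of triacylglycerol synthesis. It stood at 311, 261 and 215 FPKM in pacing 1, 2 and 3, against 200.1, 254 and 267 FPKM in sham 1, 2 and 3. Pacing 1 was the highest mouse and sham 1 the lowest, and the other 4 mice lay between them in mixed order. The log2 fold change was 0.12 (SE 0.15, 95% interval -0.23 to 0.47, limma adjusted p = 0.858), and it was -0.01 without pacing 1 and -0.01 without sham 1. Dgat2 spans chr7:99153663-99182713 on the minus strand. Dgat1, the second enzyme of that step, stood at 18.2, 16.3 and 15.2 FPKM in pacing 1, 2 and 3, against 13.6, 13.6 and 15.1 FPKM in sham 1, 2 and 3. Each paced mouse lay above each sham mouse for Dgat1, by a margin under 0.1 FPKM between the nearest mice (log2 fold change 0.22 with an SE of 0.09, adjusted p = 0.563 by limma).

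Of the other triacylglycerol synthesis genes 14 of 21 names were tested, with older and newer symbols listed side by side, and 5 were positive, 9 negative and 0 passed, with a median log2 fold change of -0.05. Gpam, the mitochondrial enzyme of the first step, stood at 52.7, 58.3 and 58.4 FPKM in pacing 1, 2 and 3, against 60.3, 82.0 and 66.5 FPKM in sham 1, 2 and 3. Each paced mouse lay below each sham mouse for Gpam (log2 fold change -0.29 with an SE of 0.12, adjusted p = 0.546 by limma). Neither the higher Dgat1 nor the lower Gpam passed over all genes.

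Lipolysis is opened by Pnpla2, the adipose triglyceride lipase, and continued by Lipe, the hormone-sensitive lipase. Pnpla2 stood at 216, 168 and 143 FPKM in pacing 1, 2 and 3, against 138, 162 and 153 FPKM in sham 1, 2 and 3. Pacing 1 stood above the rest, and the other 5 mice overlapped. The log2 fold change was 0.20 (SE 0.14, 95% interval -0.13 to 0.53, limma adjusted p = 0.744), and it was 0.04 without pacing 1. It was 0.33 without pacing 3 (limma unadjusted p = 0.0365 and adjusted p = 0.746). Without pacing 2 and pacing 3, the mice with lung transcripts, it was 0.51. With both left out, pacing 1 stands alone and is assumed to vary as the sham mice do. Pnpla2 lies at chr7:141455188-141460743 on the plus strand.

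Lipe had the largest fold change of the members. It stood at 46.0, 41.6 and 34.4 FPKM in pacing 1, 2 and 3, against 35.9, 30.2 and 26.3 FPKM in sham 1, 2 and 3. Pacing 3 lay below sham 1, and the other paced mice lay above all sham mice. The means were 40.7 ± 5.85 FPKM in paced and 30.8 ± 4.80 FPKM in sham ventricles (SD, n = 3 each), with a log2 fold change of 0.39 (SE 0.14, 95% interval 0.08 to 0.71, unadjusted p = 0.0208 and limma adjusted p = 0.492). By an exact permutation test, p was 0.2 for Lipe, where 0.1 is the smallest p that 3 mice per group allow. Over the alternatives its limma adjusted p was never lower than 0.149, which was reached without sham 1. Its unadjusted p was 0.0629 with no filter on low values and 0.0571 with the atrial covariate, and it was over 0.05 in 3 of the 6 fits without 1 mouse. Other settings lowered it, among them a replicate block (limma unadjusted p = 0.00356) and rescaling to equal sums (0.0150). It was 0.00483 without sham 1 and 0.00687 without pacing 3.

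Fat markers moved with Lipe. Sham 1 had the highest Adipoq and the highest Lipe of the sham mice, pacing 1 had the highest of both among the paced mice, and pacing 3 the lowest of both. With the level of Adipoq and Cidec as a covariate the log2 fold change of Lipe was 0.02 (SE 0.16, limma adjusted p = 1.0). Both genes were themselves lower in every sham mouse than in any paced one, so that fat content and pacing cannot be told apart in such a fit. Lipe occupies chr7:25379527-25398710 on the minus strand in GENCODE M21. The deposited interval, chr7:25376819-25566417, is shared by 4 further rows, of which Ceacam1 was the highest at no more than 7.20 FPKM. An antisense gene that overlaps Lipe was listed at no more than 0.733 FPKM, and no label or header states whether strand was used in counting.

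None of the partners of Pnpla2 named here passed. Abhd5, the activator of Pnpla2, averaged 23.7 ± 1.96 FPKM in paced and 24.4 ± 1.93 FPKM in sham ventricles, and its inhibitor G0s2 averaged 83.3 ± 18.7 and 77.8 ± 11.3 FPKM in the same order. Hilpda, a further inhibitor, averaged 9.26 ± 0.762 FPKM in paced and 9.20 ± 1.07 FPKM in sham ventricles (SD, n = 3 each). Their log2 fold changes were -0.04, 0.09 and 0.01, with limma adjusted p of 0.933, 0.912 and 0.988. Of the droplet coat and lipolysis list 23 of 29 names were tested, 13 positive and 10 negative, with a median log2 fold change of 0.01 and 0 passing.

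At an unadjusted p under 0.05 the list held 2 genes that were higher and 1 that was lower in paced mice. The higher ones were the fat droplet genes Cidec and Plin1, which are also in the list of adipocyte markers. Cidec stood at 42.9, 20.6 and 17.98 FPKM in pacing 1, 2 and 3, against 13.4, 1.32 and 0.934 FPKM in sham 1, 2 and 3. The lower one was Fitm2, which helps droplets to form at the endoplasmic reticulum, at 64.9, 65.6 and 59.8 FPKM in pacing 1, 2 and 3, against 72.5, 77.2 and 71.1 FPKM in sham 1, 2 and 3 (log2 fold change -0.21 with an SE of 0.08, adjusted p = 0.510 by limma). Each paced mouse lay below each sham mouse for Fitm2.

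**Figure D2:**
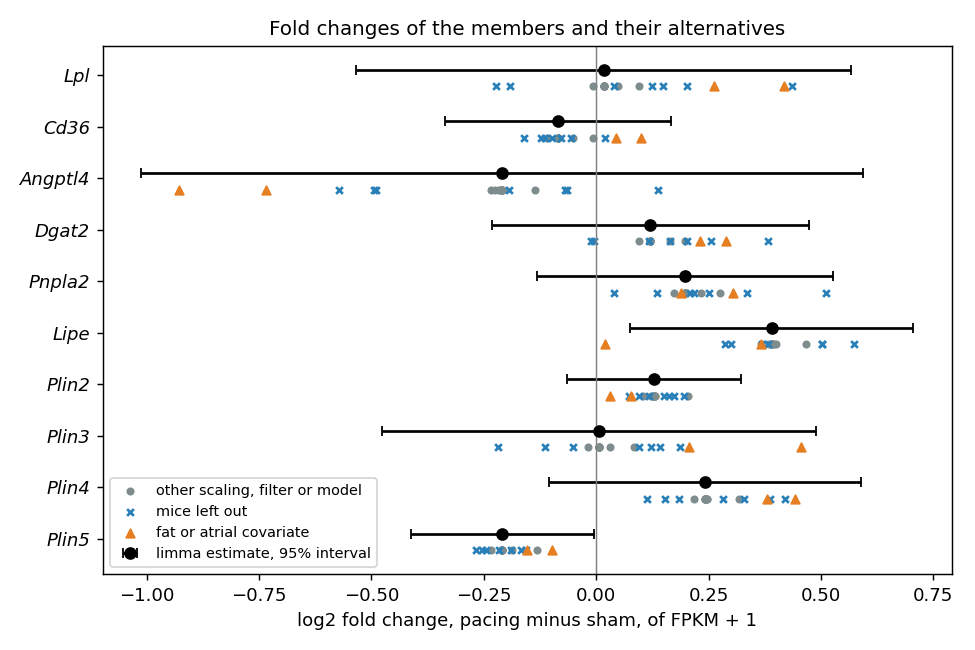
Log2 fold change of each member, pacing minus sham, with its 95% interval (black), and the same value with another scaling, filter or model (grey), with mice left out (blue crosses) and with a fat or atrial covariate (orange triangles). The intervals of Lipe and Plin5 lie on 1 side of 0, and the estimate of Lipe moves to 0.02 with the fat covariate.

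The perilipins differ in where they act. Plin2 and Plin3 coat droplets in most cell types, Plin4 is a long repeat protein of adipocytes and muscle, and Plin5 belongs to tissues that burn fat. Plin3, Plin4 and Plin5 lie on chromosome 17 on the minus strand, with 1797 bases between the GENCODE gene models of Plin4 and Plin5. The deposited intervals are chr17:56278962-56290511 for Plin3, chr17:56079631-56109802 for Plin4, chr17:56111601-56117548 for Plin5 and chr4:86656565-86670059 for Plin2, which is also on the minus strand. The interval of Plin4 is shared with Hdgfrp2, a gene on the other strand at 20.2 to 23.5 FPKM, and reads in any overlap of both cannot be told apart without strand.

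The promoters of the 4 perilipins are shown because these genes form 1 family whose proportions are compared. Each runs from 250 bases before to 50 bases after the start site, is read 5′ to 3′ on the minus strand and comes from RefSeq on GRCm38.p6, and capitals mark the CCAAT motif or its reverse complement ATTGG. The intervals are chr4:86670010-86670309 for Plin2, chr17:56290462-56290761 for Plin3, chr17:56109733-56110032 for Plin4 and chr17:56117499-56117798 for Plin5, the start site of Plin5 being the one that fits the deposited interval.
Plin2: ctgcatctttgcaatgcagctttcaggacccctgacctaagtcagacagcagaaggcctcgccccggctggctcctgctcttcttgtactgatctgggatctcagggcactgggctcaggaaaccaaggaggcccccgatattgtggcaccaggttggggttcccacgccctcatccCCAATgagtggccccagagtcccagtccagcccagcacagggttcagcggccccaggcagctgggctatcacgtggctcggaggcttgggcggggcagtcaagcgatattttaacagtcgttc
Plin3: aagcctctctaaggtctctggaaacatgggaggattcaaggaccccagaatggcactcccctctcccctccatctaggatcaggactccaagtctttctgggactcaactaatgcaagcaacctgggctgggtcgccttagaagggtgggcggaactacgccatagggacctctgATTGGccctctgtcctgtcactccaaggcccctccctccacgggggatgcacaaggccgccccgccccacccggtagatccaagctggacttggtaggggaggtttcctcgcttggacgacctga
Plin4: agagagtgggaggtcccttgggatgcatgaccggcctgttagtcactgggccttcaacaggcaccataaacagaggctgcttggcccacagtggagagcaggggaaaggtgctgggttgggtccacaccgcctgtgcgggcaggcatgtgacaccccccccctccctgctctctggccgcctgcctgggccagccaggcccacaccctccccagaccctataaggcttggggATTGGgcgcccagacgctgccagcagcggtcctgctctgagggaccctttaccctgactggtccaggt
Plin5: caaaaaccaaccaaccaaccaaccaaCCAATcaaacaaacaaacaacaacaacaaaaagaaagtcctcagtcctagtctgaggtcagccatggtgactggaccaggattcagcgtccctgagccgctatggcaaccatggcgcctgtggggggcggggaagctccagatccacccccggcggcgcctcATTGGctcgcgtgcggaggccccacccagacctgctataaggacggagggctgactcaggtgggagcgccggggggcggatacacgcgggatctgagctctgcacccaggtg
RefSeq promoters were matched for 7 of the 10 members, and 3 motifs were searched on both strands. The 7 members have 9 promoters in the table. CCAAT was found in 5 of these 9, each of another member, against 37.4% of 32851 promoters. Each of the 4 perilipins had it in the promoter shown, while the second promoter of Plin5, at chr17:56117249-56117548, had no CCAAT. Counted from the start site, it begins at -73 in Plin2, -75 in Plin3, -18 in Plin4, and at -224 and -62 in Plin5. The fifth gene with it is Cd36. The direct repeat of AGGNCA with 1 base between its copies, a form of the element that PPARs bind, was found in 0 of the 9 promoters and in 0.381% of all promoters, and TATAAA in 0 of the 9 and in 13.6%. Only exact letters were matched, so near forms, such as the tataag in the printed Plin4 and Plin5 promoters, were not counted.

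Plin5 was the member with the lower level in paced ventricles at an unadjusted p under 0.05. It stood at 78.1, 87.0 and 75.6 FPKM in pacing 1, 2 and 3, against 86.9, 99.9 and 91.7 FPKM in sham 1, 2 and 3. Pacing 2 and sham 1 met at nearly the same value, and the other mice lay on separate sides of it. The means were 80.2 ± 6.00 FPKM in paced and 92.9 ± 6.55 FPKM in sham ventricles (SD, n = 3 each), with a log2 fold change of -0.21 (SE 0.09, 95% interval -0.41 to -0.01, unadjusted p = 0.0453 and limma adjusted p = 0.562). By an exact permutation test, p was 0.2 for Plin5, where 0.1 is the smallest p that 3 mice per group allow. Over the alternatives its log2 fold change lay between -0.27 and -0.10. The unadjusted p did not stay under 0.05 after rescaling to equal sums (0.142), under quantile normalization (0.0540), in eBayes without a trend (0.0672), or with the fat (0.518) or atrial covariate (0.155). It was also over 0.05 in 4 of the 6 fits without 1 mouse.

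Plin4, its neighbour on the chromosome, lay on the other side. It stood at 61.4, 58.7 and 44.0 FPKM in pacing 1, 2 and 3, against 38.0, 51.6 and 48.4 FPKM in sham 1, 2 and 3. Pacing 3 lay within the sham range, and the other paced mice lay above it. The log2 fold change was 0.24 (SE 0.15, 95% interval -0.11 to 0.59, limma adjusted p = 0.689). It was 0.11 without sham 1 and 0.15 without pacing 1, against 0.39 without pacing 3, 0.44 with the fat covariate and 0.38 with the atrial covariate. None of these passed (limma adjusted p of at least 0.674). The limma unadjusted p was 0.0235 without pacing 3 and 0.0417 with the atrial covariate. Without pacing 2 and pacing 3 the log2 fold change was 0.42.

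Plin2 had the smallest spread of the perilipins. It stood at 47.0, 42.0 and 45.5 FPKM in pacing 1, 2 and 3, against 42.8, 37.8 and 42.1 FPKM in sham 1, 2 and 3, with a log2 fold change of 0.13 (SE 0.08, 95% interval -0.06 to 0.32, limma adjusted p = 0.706). Pacing 2 lay within the sham range. Plin3 stood at 75.0, 82.0 and 53.7 FPKM in pacing 1, 2 and 3, against 50.1, 83.3 and 78.0 FPKM in sham 1, 2 and 3, so that 1 low mouse in each group set its spread (log2 fold change 0.01, SE 0.21, 95% interval -0.48 to 0.49, limma adjusted p = 0.996). Its log2 fold change was -0.05 without pacing 1, -0.11 without pacing 2 and -0.22 without sham 1.

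The perilipins were also compared by their proportions within each mouse, which another library size would leave as they are. This comparison was chosen after the values were seen. The summed FPKM of Plin1 to Plin5 was 261 ± 31.1 in paced and 253 ± 24.5 in sham ventricles (SD, n = 3 each). Plin5 held 28.3%, 30.9% and 33.6% of that sum in pacing 1, 2 and 3, against 38.5%, 36.6% and 35.2% in sham 1, 2 and 3. Plin4 held 22.2%, 20.9% and 19.6% in pacing 1, 2 and 3, against 16.8%, 18.9% and 18.6% in sham 1, 2 and 3. For both genes the groups did not overlap, with differences of -5.83 and 2.78 percentage points. The shares are parts of 1 sum, so these are not separate results, and they are given as a description with no test. The shares of Plin1, Plin2 and Plin3 overlapped between the groups. Leaving Plin1 out of the sum gave differences of -5.03 points for Plin5 and 3.46 points for Plin4, again without overlap.

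**Figure D3:**
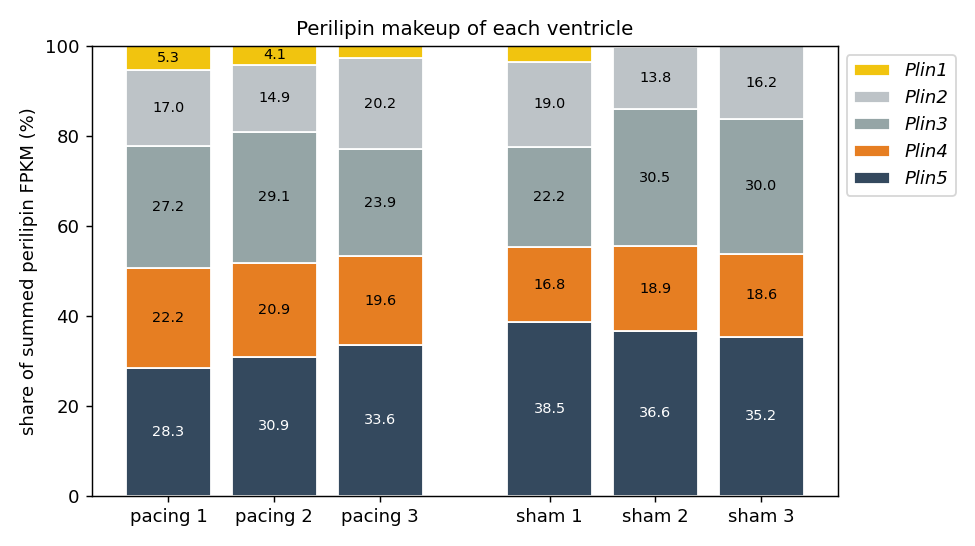
Share of each perilipin in the summed perilipin FPKM of each mouse, in percent, for Plin5 (bottom) to Plin1 (top). The Plin5 share lies between 28.3% and 33.6% in the paced mice and between 35.2% and 38.5% in the sham mice.

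The ratio of Plin4 to Plin5 was 0.786, 0.674 and 0.582 in pacing 1, 2 and 3, against 0.437, 0.517 and 0.527 in sham 1, 2 and 3, a difference of 0.46 on the log2 scale. Of the 45 ratios between 2 members, 3 did not overlap between the groups, or 6.67%, and all 3 held Plin5. The others were Plin5 to Pnpla2, at 0.362, 0.517 and 0.529 in pacing 1, 2 and 3, against 0.629, 0.616 and 0.600 in sham 1, 2 and 3, and Plin5 to Lipe, at 1.70, 2.09 and 2.199 in pacing 1, 2 and 3, against 2.42, 3.31 and 3.48 in sham 1, 2 and 3. Among the 11993 other genes tested, the ratio to Plin5 had no overlap in 25.9%, with 25.5% higher and 0.375% lower in paced mice. For the ratio to Lipe these shares were 28.3% in all, 0.584% higher and 27.7% lower. The 3 of 9 ratios to Plin5 and the 1 of 9 to Lipe seen here do not stand clear of that background. Nothing particular to the members can be read from these ratios, or from the perilipin shares, which rest on the same Plin5 values.

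PPAR alpha and its relatives are nuclear receptors that fatty acids activate, and Plin2, Plin4, Plin5, Angptl4, Cd36 and Lpl are among their known targets. The receptors and their partners were level, with 5 of 14 positive and 9 negative, a median log2 fold change of -0.03 and 0 passing. Ppara averaged 11.9 ± 2.64 FPKM in paced and 11.3 ± 2.17 FPKM in sham ventricles. Pparg, the receptor of adipocytes, averaged 12.9 ± 2.84 FPKM in paced and 10.4 ± 1.32 FPKM in sham ventricles (SD, n = 3 each). The coactivator subunit Med1 was the gene of this list with an unadjusted p under 0.05, at 8.39 ± 0.779 FPKM in paced and 10.0 ± 0.810 FPKM in sham ventricles (log2 fold change -0.23 with an SE of 0.10, adjusted p = 0.563 by limma).

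Of the PPAR targets outside the members 22 of 25 were tested. Their fold changes were positive in 3 and negative in 19, with a median of -0.09 and 0 passing. The mitochondrial carrier Ucp3 stood at 53.1, 60.8 and 56.1 FPKM in pacing 1, 2 and 3, against 92.9, 62.9 and 74.3 FPKM in sham 1, 2 and 3 (log2 fold change -0.41 with an SE of 0.14, adjusted p = 0.478 by limma). Each paced mouse lay below each sham mouse for Ucp3. Ucp2, a relative of Ucp3, and the acyl-CoA thioesterase gene Acot2 also had an unadjusted p under 0.05, with log2 fold changes of 0.61 and -0.28. Pdk4, the kinase that shuts pyruvate out of mitochondria when fat is burned, averaged 182 ± 34.3 FPKM in paced and 193 ± 26.5 FPKM in sham ventricles (limma adjusted p = 0.897).

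**Figure D4:**
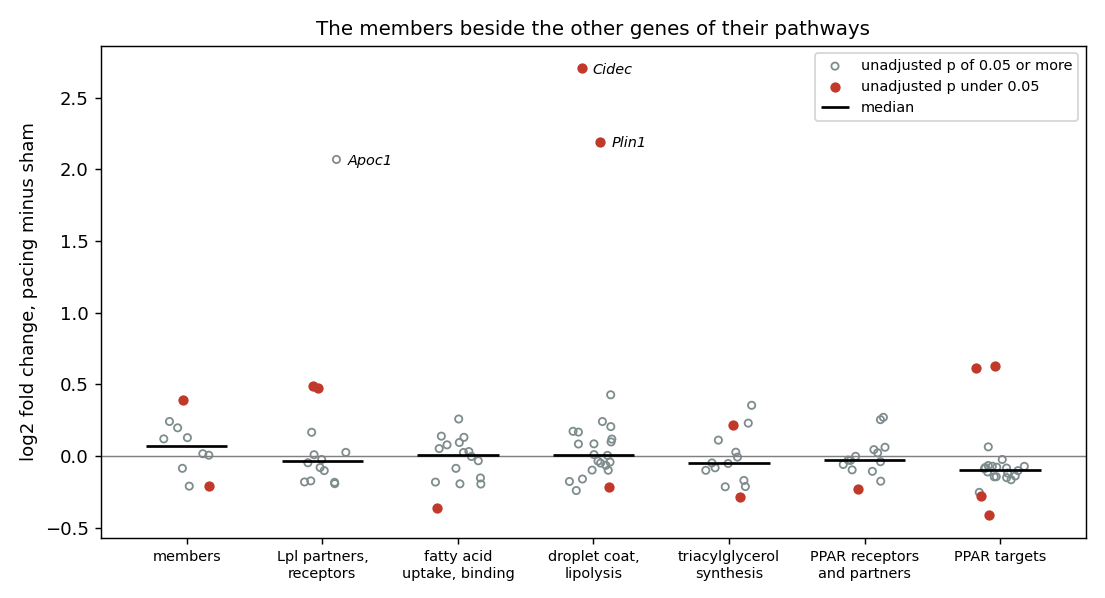
Log2 fold change, pacing minus sham, of each tested gene (points) for the members and for 6 lists of related genes, with the list median (line) and genes at an unadjusted p under 0.05 filled. The medians lie between -0.09 and 0.07, and the points far from 0 are the fat genes Cidec and Plin1 and the apolipoprotein gene Apoc1.

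Because adipocytes share most members, their markers were set beside them. All 11 of the adipocyte markers tested, of 12 listed, had positive fold changes, with a median of 2.19, and 11 had an unadjusted p under 0.05. Their summed level was 788, 462 and 352 FPKM in pacing 1, 2 and 3, against 344, 67.1 and 45.7 FPKM in sham 1, 2 and 3. Plin1 stood at 14.6, 11.6 and 6.16 FPKM in pacing 1, 2 and 3, against 7.83, 0.524 and 0.0941 FPKM in sham 1, 2 and 3. The brown fat gene Ucp1 stood at 48.6, 30.2 and 1.06 FPKM in pacing 1, 2 and 3, against 21.1, 3.34 and 1.08 FPKM in sham 1, 2 and 3, with Elovl3 at or below 0.151 FPKM in all 6 mice. Of 6 listed brown fat markers 4 were tested, with a median log2 fold change of 0.14 and 0 at an unadjusted p under 0.05. Ucp1 and Cidea were positive (1.34 and 0.43), and Cox8b and Fabp3 were negative (-0.16 and -0.15). Cox8b and Fabp3 stood at no less than 2746 and 8902 FPKM in any mouse, also where Ucp1 was low, and cardiomyocytes make Fabp3. The median of this list therefore cannot be read as a level of brown fat. Among the paced mice, pacing 1 had the most fat transcripts and was the highest for 6 of the 10 members, and pacing 3 had the fewest and was the lowest for 7. Lipe, Pnpla2, Dgat2 and Plin4 had the same order over the paced mice as the summed fat markers. Among the sham mice, sham 1 had the most fat transcripts. It was nevertheless the lowest for 7 of the 10 members, Pnpla2, Dgat2 and Plin4 among them. It was the highest for 3, Lipe, Plin2 and Angptl4. The part of fat tissue in the members' values was not tested, beyond the covariate fits in which it cannot be told apart from pacing.

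**Figure D5:**
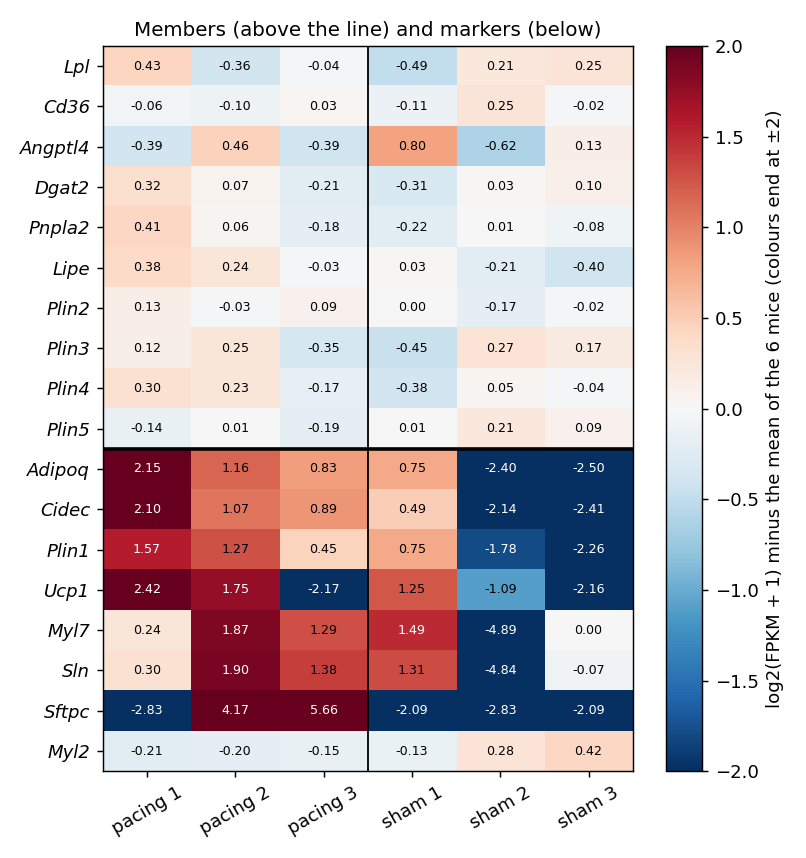
Each cell gives log2(FPKM + 1) of a gene in a mouse minus the mean of that gene over the 6 mice, with members above the line and fat (Adipoq, Cidec, Plin1, Ucp1), atrial (Myl7, Sln), lung (Sftpc) and ventricular (Myl2) genes below. The members stay within 0.80 of their mean, while the marker genes of other tissues depart by up to 5.66.

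Other cell types were checked with the same kind of list. All 6 atrial markers had positive fold changes (median 1.97), with a summed level between 5751 and 14673 FPKM in paced and between 426 and 12689.5 FPKM in sham ventricles, and 0 had an unadjusted p under 0.05. All 8 lung markers tested were positive (median 2.55), with sums of 4.06, 316 and 1728 FPKM in pacing 1, 2 and 3 and at most 5.55 FPKM in sham mice. The 8 macrophage and 6 fibroblast markers tested were positive as well (medians 0.30 and 0.42), with sums between 266 and 458 and between 948 and 1253 FPKM in paced mice, against between 213 and 317 and between 750.4 and 966 FPKM in sham mice. All 9 cardiomyocyte markers were negative (median -0.22), with sums between 64562 and 66658 FPKM in paced and between 67768 and 88219 FPKM in sham ventricles. The limma unadjusted p was under 0.05 for 8 lung, 4 fibroblast, 2 cardiomyocyte, 2 endothelial and 0 macrophage markers, against 8.85% of all genes tested. Of these lists, cardiomyocyte and endothelial genes lay on the same side as Plin5, and their part in its lower level was not tested. No member passed in any of the fits with a fat or atrial covariate or without pacing 2 and pacing 3.

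None of the 10 members was called in the authors' deposited table, which called 1.38% of its 24341 rows, 1.23% higher and 0.152% lower in the pacing group. In the authors' deposited table the lowest q-value of a member was 0.137 for Lipe, with a log2 fold change of 0.40 and group values of 40.4 FPKM in the pacing and 30.6 FPKM in the sham group. In the authors' deposited table Angptl4 had a log2 fold change of -0.28 (q = 0.571), Plin4 of 0.25 (q = 0.673) and Plin5 of -0.21 (q = 0.708). The remaining members had a q-value of at least 0.740 in the authors' deposited table.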

How the data were processed

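The authors deposited an FPKM value per gene and mouse, in 24239 rows, with 0.01 as the lowest value. Their deposited comparison table holds, per the file headers, the FPKM of both groups, the log2 ratio of pacing to sham and a q-value. Per the submitters' processing notes, the genome was mm10 and the tools were TopHat2 2.1.0 with Bowtie2 2.2.6, FastQC 1.0.0, and Cufflinks with Cuffdiff. No source used here gives the annotation or settings. The strand column holds a plus sign in every row, so strands were taken from GENCODE M21, whose build matches, and deposited starts were raised by 1 base to count from 1. One row with a failed estimate was left out. Replicate mice are separate animals per the series design.

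FPKM is not a count, so genes with a mean of at least 1 FPKM were tested with limma 3.58.1 (R 4.3.3) after adding 1 FPKM and taking log2. The model held the group alone, eBayes used a trend, and tests were two-sided. P-values were adjusted over 11994 genes (Benjamini-Hochberg). Exact permutation tests used SciPy 1.17.1. Effective depth came from 640 genes with 1 exon between 800 and 3000 bases, shortened by 166 bases. Their values under 10 fragments, 48 to 61 per library, were whole in 100% of cases within 0.05 of a fragment. Depth and shortening were chosen to make these values whole, so this share is no separate check. On simulated data of 11994 genes, 82.5% of changes of 1 and 98.1% of changes of 2 on the log2 scale were recovered, with 9.7 false calls per simulation. Each simulation changed 200 genes, and its noise was independent between genes, without shared differences in tissue makeup. Changes as small as those of the members were not simulated, so these rates do not hold for them.

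The members and lists were chosen with earlier results of these data known. From each list the text names the genes with the largest fold change in each direction among those with an unadjusted p under 0.05, and 11 genes chosen by name, and from each marker list the first 3 in part. Others were chosen after their values were seen. One gene that this rule names is not reported here. Alternatives tried were no filter, a filter at 5 FPKM, pseudocounts of 0.1 and 0.5, 3 scalings, eBayes without a trend or robust, a replicate block, fat and atrial covariates, and mice left out.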

Additional observations from a re-analysis of the deposited data

How the results depend on the processing

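No member passed an adjusted p under 0.05 in any of the 190 alternative values, the lowest being 0.149. Direction was kept in 177 of them, some of which could not turn it. The changes of filter, the other forms of eBayes and the replicate block leave every fold change as it is. Direction turned for Plin3 (-0.018) and Lpl (-0.0079) after centring on medians, and for Cd36 with the fat covariate (0.10) and the atrial covariate (0.043). Leaving out each mouse in turn gave log2 fold changes from -0.22 to 0.19 for Plin3, -0.22 to 0.20 for Lpl, -0.16 to 0.020 for Cd36, -0.57 to 0.14 for Angptl4 and -0.011 to 0.26 for Dgat2. The cause was not tested. Over all genes limma called 0 higher and 0 lower after adjustment, with 620 higher and 442 lower at an unadjusted p under 0.05. There were 6 higher without a filter, 1 with robust eBayes and 7 with a replicate block, and from 0 to 106 higher and 0 to 1 lower when each mouse was left out, the highest count being without sham 1. Without pacing 1 there were 7 higher and 1 lower, and without pacing 3 there was 1 higher. The block changed no adjusted call of a member. Under it the limma unadjusted p was 0.0605 for Plin5 and 0.00356 for Lipe. Same-numbered mice did not deviate together (correlations of -0.13, -0.02 and -0.02). Such deviations also hold the differences in tissue makeup, so they cannot decide whether the mice were paired. No label states that the numbers pair them. The authors' deposited table called 336 genes, and 212 at a q under 0.01. The split at an unadjusted p was 968 higher and 148 lower with sums made equal, 514 and 609 with medians centred, and 537 and 581 under quantile normalization.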

Other observations

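The members differed in how far mice spread across both groups. The highest of the 6 mice stood at 2.82 times the lowest for Angptl4, 1.89 times for Lpl and 1.75 times for Lipe, against 1.24 times for Plin2 and 1.29 times for Cd36.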
